A study of Mus musculus with 9 samples.

Results

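The 39 genes described here encode proteins that hold the muscle fibre membrane to the actin and intermediate filament cytoskeleton on one side and to the basement membrane on the other: the dystrophin complex, the integrin, talin and vinculin adhesions, the caveolae and the spectrin membrane skeleton. They were taken by symbol from a table of 56805 genes. The RNA came from left tibialis anterior (TA) muscles, which are fast-twitch muscles of the shin, of male mice aged 13 months. There were 3 Svil-KO mice, 3 Svil-Mut mice and 3 wild-type (WT) mice, each sequenced as 1 library, and libraries are named here by genotype and the number in their title (1, 3 and 4 for Svil-KO and WT, 1, 2 and 4 for Svil-Mut). No treatment is described, the altered stretch of Svil and the cells in which it is altered are not stated for either line, and the Svil-Mut libraries are titled BG.

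A costamere is a rib-like assembly under the fibre membrane that lies over the Z-disc and passes force sideways out of the fibre. Dystrophin ties cortical actin to dystroglycan, which grips laminin outside the cell, and the sarcoglycans brace this link. The integrin made of the alpha 7 and beta 1 chains forms a parallel link through talin and vinculin. Supervillin, the product of Svil and a relative of villin and gelsolin, binds actin and myosin II and sits in the same membrane skeleton. Loss of dystrophin, of sarcoglycans, of laminin alpha 2 or of dysferlin causes muscular dystrophy in mice and in humans.

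Svil itself was counted at 7402, 6746 and 6656 in Svil-KO muscles, 4615, 3939 and 4582 in Svil-Mut, and 8686, 9373 and 8407 in WT, in normalized counts, which are read counts divided by a size factor for each library. Every library of either altered genotype lay below every WT library, and the Svil-Mut libraries lay below the Svil-KO libraries. The log2 fold change was -1.01 ± 0.09 (SE) in Svil-Mut against WT (limma, adjusted p = 0.000941) and -0.35 ± 0.09 (SE) in Svil-KO against WT (limma, adjusted p = 0.997), and the difference between the altered genotypes was 0.67 ± 0.09 (SE) (limma, adjusted p = 0.0261). The last call was lost without Svil-KO 1, 3 or 4 (adjusted p = 0.0892, 0.110 and 0.107), without Svil-Mut 2 (0.0820) and without WT 1 or 4 (0.0626 and 0.0610), all by limma. A count over the whole gene does not show which part of the transcript remains. Total depth was 36234428 to 48762188 reads per library, and 19282 to 19988 genes were detected. Markers of fast fibres summed to 5521920 to 6933420 normalized counts per library and markers of slow fibres to 38987 to 120036, as in a muscle of mostly fast fibres.

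All 39 genes were in the table and 38 passed the filter of a normalized count of 10 in at least 3 libraries. The exception was Ilk, integrin-linked kinase, which was listed between 0 and 3.04 normalized counts in all 9 libraries. In the annotation, 89.7% of the exonic bases of Ilk also belong to Taf10 or Rrp8 on the opposite strand, and the library kit does not mark strand, so the low count gives no measure of Ilk expression. The same overlap touches a smaller part of Sync (27.3% of exonic bases, shared with Rbbp4) and Vcl (25.5%, shared with Ap3m1), and under 7% of the exonic bases of each other member.

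Divided by the exonic length of each gene, levels over the 9 libraries spanned 669-fold among the 38 genes. The highest was Sgca, alpha-sarcoglycan, at 5267 ± 387 normalized counts per kb (SD over 9 libraries). Next came Synm, the intermediate filament protein synemin, at 3748 ± 364 per kb, and Itgb1bp2, the muscle integrin-binding protein melusin, at 2968 ± 364 per kb. Then followed Itgb1 at 2221, Cav3 at 1802, Cavin4 at 1783, Dag1 at 1593, Sgcb at 1553 and Plec at 1108 normalized counts per kb. Cav3 and Cavin4, and likewise Dag1 and Sgcb, stood closer to each other than the spread over libraries. Dystrophin lay well down this order, at 152 ± 26.4 per kb for Dmd, near vinculin (196 ± 33.3 per kb), zyxin (209 ± 47.6 per kb) and Sgcd (157 ± 13.6 per kb). Its autosomal relative utrophin was lower, at 46.9 ± 9.71 per kb for Utrn. The lowest tested members were Sntb1 at 32.9 ± 14.2, Sntb2 at 21.0 ± 5.71 and Dtnb at 7.87 ± 2.78 normalized counts per kb. With the longest transcript as the length in place of all exons, 9 of the 10 highest members were the same. The cDNA was primed with oligo(dT), and evenness of coverage along long transcripts was not examined. Together the 39 genes took 0.394% to 0.433% of all normalized counts in a library.

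**Figure D1:**
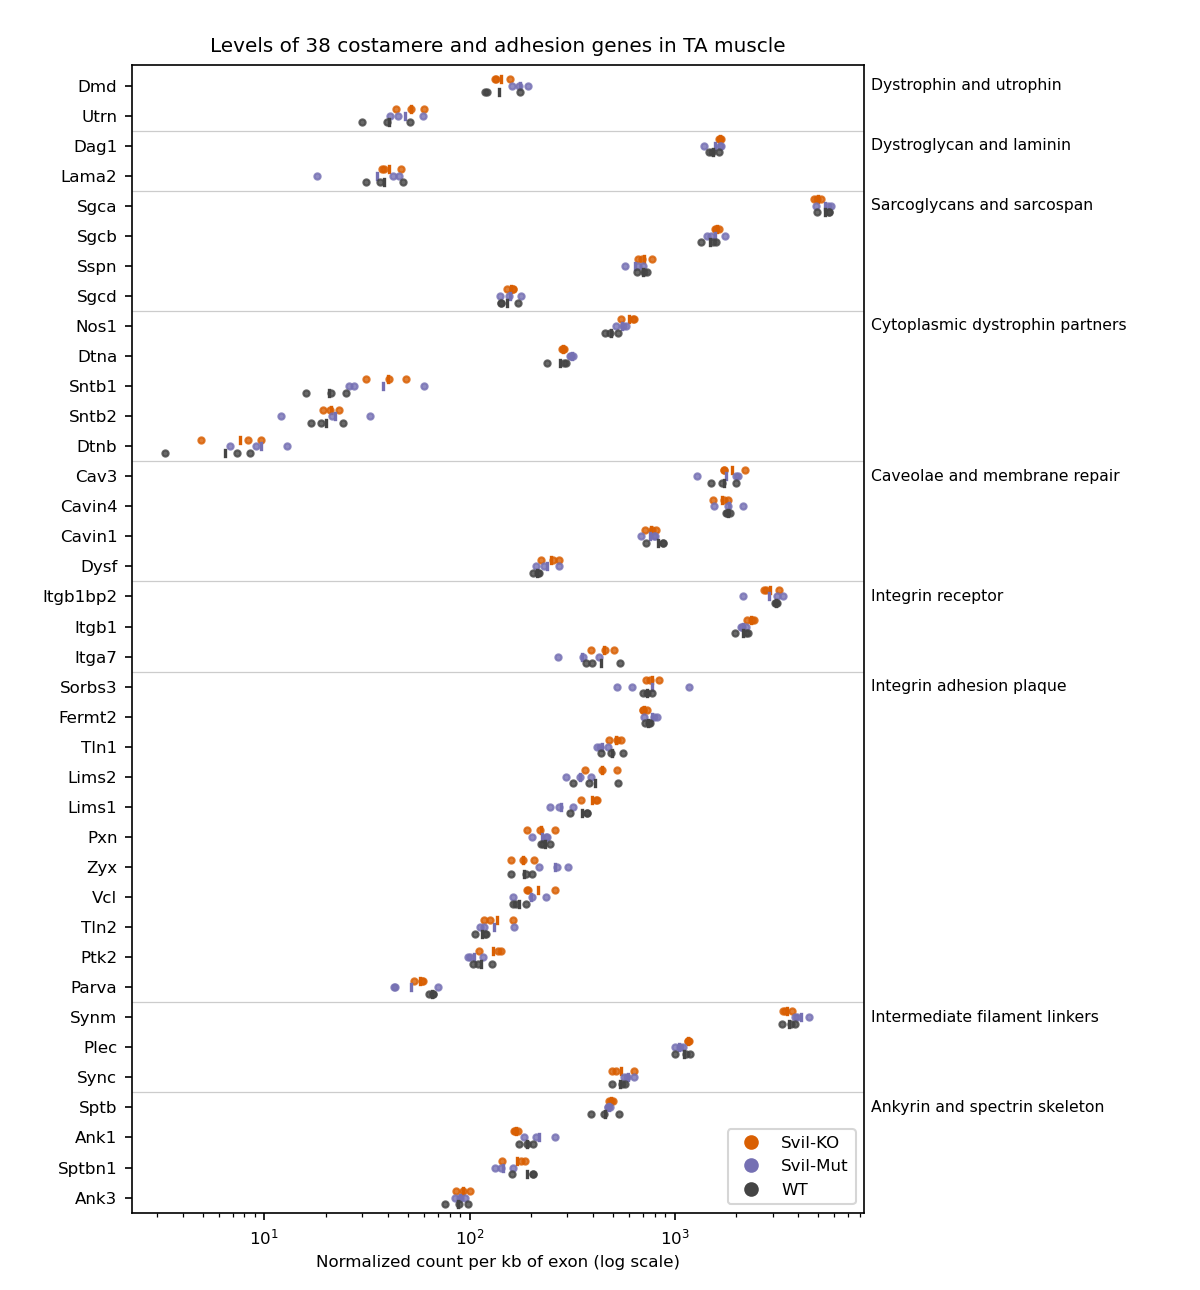
Normalized count per kb of exon (log axis) of the 38 tested genes, grouped by role, with 1 point per library in Svil-KO, Svil-Mut and WT and a short bar at the mean of each genotype (n = 3). The genotypes lie on top of each other for most genes while the genes span 669-fold, and Sntb1 shows the Svil-KO libraries above the WT libraries.

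Stretches around the gene starts were searched for 4 motifs known from muscle and cytoskeletal promoters. RefSeq promoter windows (GRCm38.p6, 250 bases before to 50 after each start) were available for 25 of the 39 genes, 37 windows in all, and were searched on both strands beside 32841 windows of all genes. The CArG box of serum response factor was found in 10.8% of the windows of these genes and in 1.63% of all windows, in Dmd, Fermt2, Lama2 and Vcl. The AP-1 motif TGANTCA was found in 13.5% against 7.81%, in Dmd, Dtnb, Sspn and Zyx. The MCAT motif CATTCC, read by TEAD factors, was found in 29.7% against 14.7%, in 7 of the 25 genes. The E-box CANNTG was found in 64.9% against 72.3%, in 19 of the 25 genes. Some genes have several windows, and those of Cavin1 and Dtnb overlap, so shares of windows are not shares of genes. Windows of 3 genes are shown: Dmd and Vcl as the actin linkers of the dystrophin and the integrin arm, each with a CArG box, and Zyx as the member with the smallest p in Svil-Mut against WT. Matches to CArG or AP-1, which do not overlap each other in these windows, are in capitals.
Dmd, chrX:82948620-82948919, plus strand: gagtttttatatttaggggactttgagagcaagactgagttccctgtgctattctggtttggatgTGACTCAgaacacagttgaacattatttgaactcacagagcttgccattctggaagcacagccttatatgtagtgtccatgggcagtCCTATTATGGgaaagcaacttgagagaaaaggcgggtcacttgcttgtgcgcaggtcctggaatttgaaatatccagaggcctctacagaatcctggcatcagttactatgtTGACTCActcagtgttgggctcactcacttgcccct
Vcl, chr14:20929148-20929447, plus strand: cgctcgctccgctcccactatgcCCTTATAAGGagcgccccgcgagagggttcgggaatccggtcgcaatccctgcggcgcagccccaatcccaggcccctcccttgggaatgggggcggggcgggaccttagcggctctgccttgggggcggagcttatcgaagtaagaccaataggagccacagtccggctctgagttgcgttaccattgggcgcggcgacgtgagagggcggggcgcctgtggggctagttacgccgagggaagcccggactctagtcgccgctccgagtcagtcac
Zyx, chr6:42349578-42349877, plus strand: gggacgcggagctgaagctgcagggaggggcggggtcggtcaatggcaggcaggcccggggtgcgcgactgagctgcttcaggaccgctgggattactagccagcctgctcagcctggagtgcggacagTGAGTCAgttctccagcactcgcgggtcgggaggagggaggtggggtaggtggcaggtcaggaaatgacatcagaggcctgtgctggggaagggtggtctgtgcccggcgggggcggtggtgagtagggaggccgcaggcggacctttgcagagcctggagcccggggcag
The Dmd window holds CCTATTATGG 98 bases before the start and TGACTCA both 185 bases before and 14 bases after it. The Vcl window holds CCTTATAAGG 227 bases before the start, and the Zyx window holds TGAGTCA 121 bases before it. A match is a description of letters and not a binding site.

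In Svil-KO muscle against WT, no member changed at an adjusted p under 0.05: 0 of 38 were called by limma, against 0.0% of the 15279 genes tested, and edgeR and DESeq2 also called 0. The members with the smallest p were Nos1 and Sntb1, 2 genes of the cytoplasmic side of the dystrophin complex, and both were higher in Svil-KO. These 2 (5.26% of members) had an unadjusted limma p under 0.05, against 4.11% of all genes, and 1 did without WT 3. In 6 members (15.8%), the Svil-KO and WT libraries did not overlap, against 10.7% of all genes: Sntb1, Nos1, Dysf and Vcl were higher and Parva and Ank1 lower in every Svil-KO library. With 1 library left out, 2 are set against 3 and separate more easily, and the share of all genes was not counted. The count of members was then 11 without Svil-KO 4, 12 without WT 1, 12 without WT 3 and 11 without WT 4. Fold changes were above 0 on the log2 scale for 27 of 38 members (71.1%), against 50.6% of all genes. Their median was 0.074 over the members and 0.0031 over all genes, and it was 0.028 without WT 4. For 36 of 38 members (94.7%), the 95% interval of the fold change lay within 1 on the log2 scale, against 64.2% of all genes. The other 2, Sntb1 and Dtnb, are among the members with the lowest counts, and genes of like level were not compared.

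In Svil-Mut muscle against WT, 0 of 38 members were called by limma, edgeR or DESeq2, where limma called 0.0393% of all genes. At an unadjusted limma p under 0.05 there were 6 members (15.8%), against 10% of all genes. Dmd, Sntb1, Dtna and Zyx were higher in Svil-Mut, and Lims1 and Sptbn1 were lower. This count was 3 without WT 1, 3 with libraries scaled to equal totals and 2 without the variance trend. Libraries of the genotypes did not overlap for Sntb1, Dtna and Zyx, 7.89% of members against 13.9% of all genes. With 1 library left out, 2 are again set against 3, and the share of all genes was not counted. The count of members without overlap was then 9 without Svil-Mut 1, 5 without Svil-Mut 2 and 13 without Svil-Mut 4. It was 7 without WT 1, 9 without WT 3 and 5 without WT 4. Log2 fold changes were positive for 22 of 38 members (57.9%), against 49.3% of all genes. The median was 0.032 over the members and -0.0046 over all genes, and it was -0.0004 with equal totals, 0.072 without Svil-Mut 1 and -0.0042 without WT 4. The 95% interval lay within 1 on the log2 scale for 36 of 38 members (94.7%), against 61.7% of all genes. Sntb1 and Dtnb were again the other 2, and genes of like level were again not compared.

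Between Svil-KO and Svil-Mut muscle, 0 of 38 members were called by limma or edgeR, where limma called 0.0458% of all genes. DESeq2 called 1, Lims1, and the share of all genes that it called was not counted. Limma gave 6 members (15.8%) an unadjusted p under 0.05, against 10.2% of all genes, and 3 without the variance trend. Tln1, Lims1 and Ptk2 had higher and Zyx, Synm and Ank1 lower means in Svil-KO than in Svil-Mut. Libraries did not overlap for 9 members (23.7%), against 15.2% of all genes: Itgb1, Tln1, Lims1 and Plec were higher in every Svil-KO library, and Dmd, Dtna, Zyx, Synm and Ank1 were lower. With 1 library left out, 2 are set against 3, and the share of all genes was not counted. The count of members was 14 without Svil-Mut 1 and 16 without Svil-Mut 4. Log2 fold changes were positive for 27 of 38 members (71.1%), against 51.4% of all genes, with a median of 0.062 over the members and 0.0089 over all genes. The 95% interval lay within 1 on the log2 scale for 37 of 38 members (97.4%), against 61.9% of all genes. Dtnb was the exception, and genes of like level were not compared here either. The 2 comparisons with WT share the WT libraries, and those with Svil-KO or Svil-Mut share these in turn, so the 3 sets of values are not independent of each other.

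**Figure D2:**
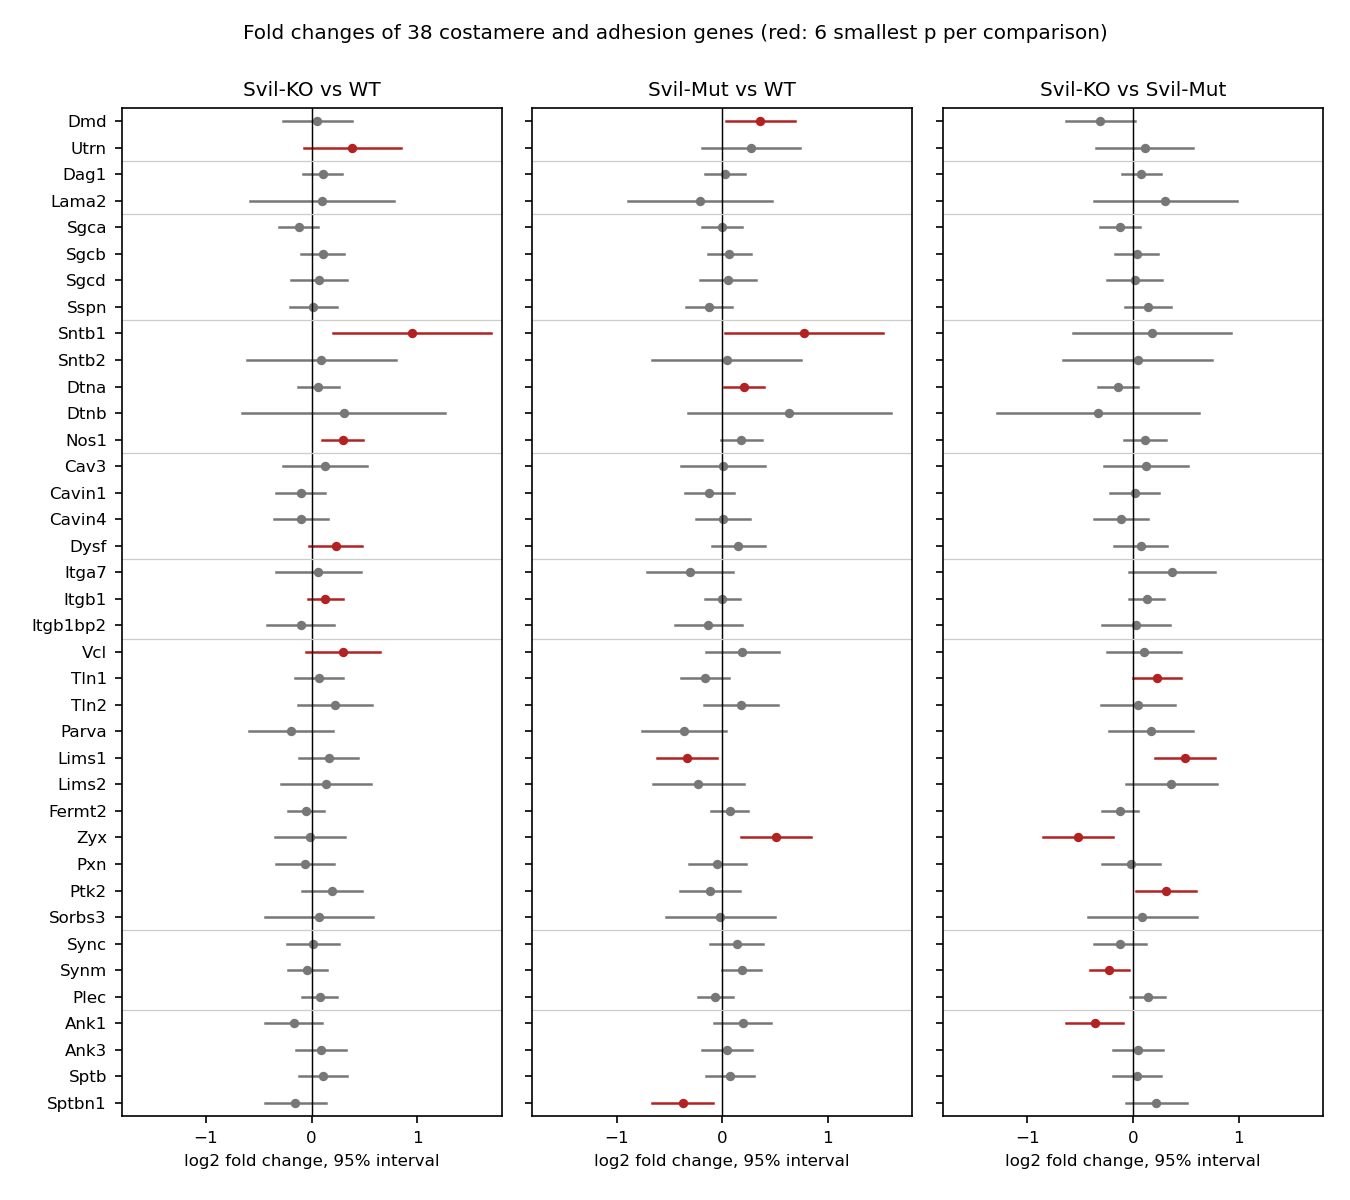
Log2 fold change with its 95% interval (limma, n = 3 per genotype) of the 38 tested genes, with a panel for each pair of genotypes and the 6 smallest p of each comparison in red. Most intervals are short and cross 0, and the wide ones belong to Sntb1, Sntb2, Dtnb and Lama2.

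The median SD within genotypes was 0.16 on the log2 scale, and the highest of the 9 libraries exceeded the lowest by 1.18-fold to 3.93-fold, by under 1.5-fold in 20 members and by over 2-fold in 7. By this range Fermt2 and Plec were the steadiest and Dtnb and Sntb1 the most variable.

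**Figure D3:**
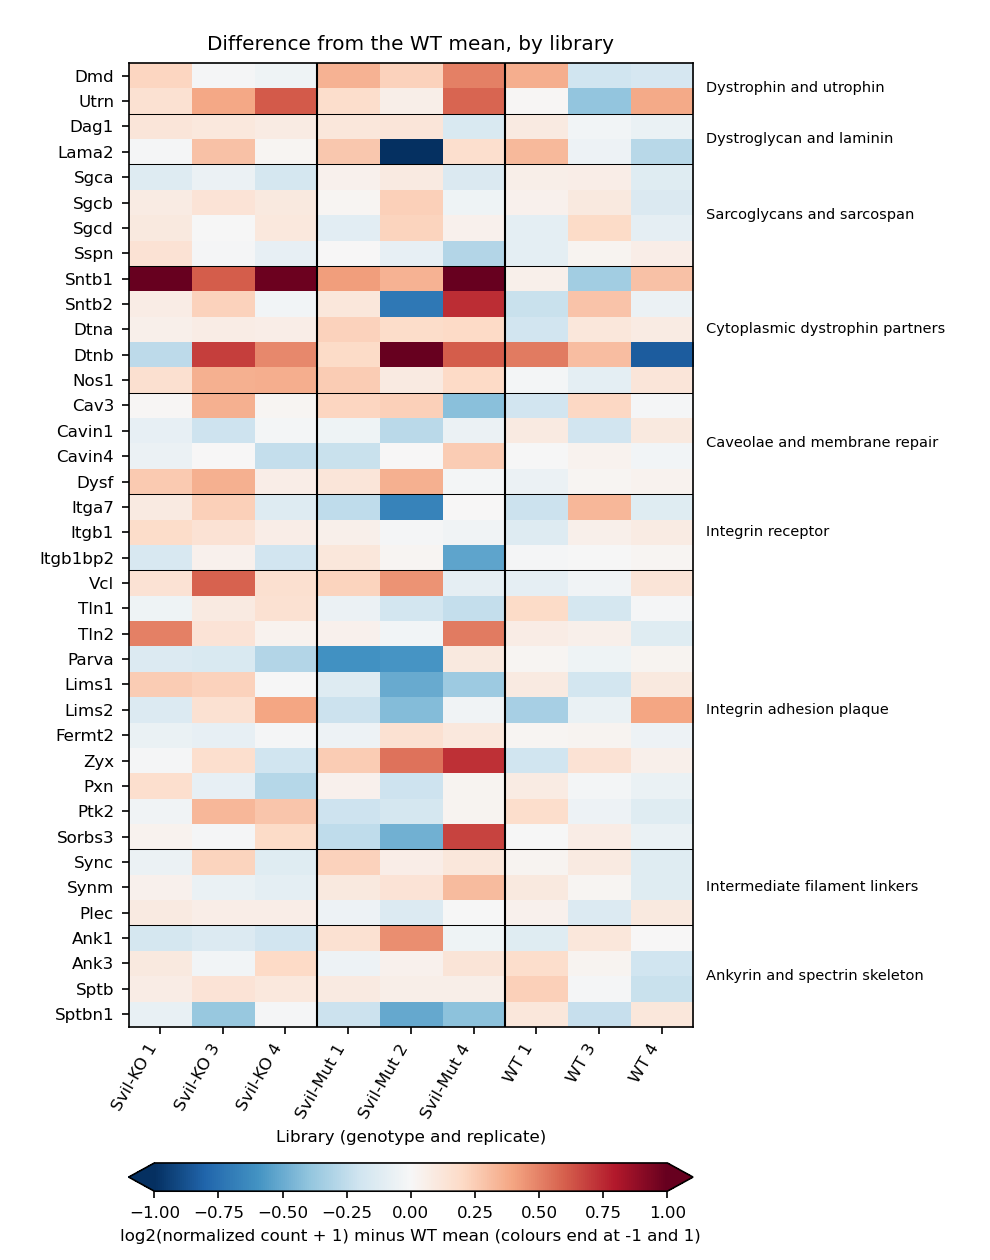
Difference of each library from the WT mean on the log2(normalized count + 1) scale, for 38 genes in rows and the Svil-KO, Svil-Mut and WT libraries in columns, with colours ending at -1 and 1. Most cells are pale, Sntb1 is dark in the Svil-KO libraries and in Svil-Mut 4, and Lama2 is lowest in Svil-Mut 2.

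Dystrophin is the large rod that joins actin to the membrane complex, and utrophin takes its place at neuromuscular junctions and in regenerating fibres. Dmd was counted at 3765, 3214 and 3156 in Svil-KO muscles, 4142, 3814 and 4599 in Svil-Mut, and 4187, 2828 and 2889 in WT. WT 1 lay among the Svil-Mut libraries, while the other two WT libraries were the lowest of all 9. The log2 fold change of Dmd was 0.36 ± 0.15 (SE) in Svil-Mut against WT (limma, adjusted p = 0.443, 95% interval 0.04 to 0.69), and it was 0.55 without WT 1. All 3 Svil-KO libraries lay below all 3 Svil-Mut libraries. Utrn was counted at 752, 885 and 1032 in Svil-KO muscles, 764, 705 and 1010.5 in Svil-Mut, and 679, 514 and 879 in WT. The genotypes overlapped, with WT 3 the lowest and Svil-KO 4 the highest library. Its log2 fold change in Svil-KO against WT was 0.39 ± 0.21 (SE) (limma, adjusted p = 0.997, 95% interval -0.08 to 0.85), and it was 0.19 without WT 3. The log2 ratio of Utrn to Dmd within a library was -1.93 ± 0.36 in Svil-KO, -2.35 ± 0.15 in Svil-Mut and -2.27 ± 0.48 in WT (SD, n = 3).

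Dag1 encodes dystroglycan, which is cut into the laminin-binding alpha and membrane-spanning beta chains. It was counted at 10692, 10554 and 10397 in Svil-KO muscles, 10587, 10645 and 8811 in Svil-Mut, and 10444, 9648 and 9378 in WT, and all 3 genotypes overlapped, with Svil-Mut 4 the lowest library. Lama2, the laminin alpha 2 chain of the muscle basement membrane, averaged 665 ± 79.2 in Svil-KO, 578 ± 247 in Svil-Mut and 627 ± 136 in WT (SD, n = 3), and Svil-Mut 2 held the lowest value, 295 normalized counts. The markers of fibro-adipogenic progenitors, fibroblast-like cells that make matrix, also summed lowest in Svil-Mut 2, at 32174 against 40824 to 62601 in the other 8 libraries. Gsn alone made up 49.9% to 57.5% of this sum, and without it Svil-Mut 2 was still lowest, at 15312.5. Single markers differed: Gsn, Dcn, Lum and Pi16 were lowest in Svil-Mut 2, Col1a1, Col3a1 and Dpt in Svil-Mut 4, and Pdgfra in WT 4. The part of these cells in the Lama2 value was not tested.

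The sarcoglycans span the membrane beside dystroglycan, and sarcospan is a tetraspanin-like partner of them. Sgca averaged 8625 ± 354 in Svil-KO, 9393 ± 787 in Svil-Mut and 9397 ± 685 in WT, and Sgcb averaged 6487 ± 123 in Svil-KO, 6344 ± 664 in Svil-Mut and 6046 ± 520.2 in WT (SD, n = 3). Sgcd averaged 1316 ± 53.8 in Svil-KO, 1307 ± 151 in Svil-Mut and 1259 ± 148 in WT, and Sspn averaged 3542 ± 287 in Svil-KO, 3216 ± 337 in Svil-Mut and 3498 ± 202 in WT (SD, n = 3). None of these 4 genes separated the genotypes in any comparison, and their log2 fold changes lay between -0.12 and 0.11 in Svil-KO against WT and between -0.12 and 0.068 in Svil-Mut against WT.

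The cytoplasmic partners held the members with the smallest p in Svil-KO against WT. Nos1, neuronal nitric oxide synthase, is anchored under the fibre membrane by syntrophin and dystrophin. It was counted at 6094, 6965 and 7024 in Svil-KO muscles, 6484, 5784 and 6258 in Svil-Mut, and 5365, 5087 and 5919.5 in WT. All 3 Svil-KO libraries exceeded all 3 WT libraries, and the Svil-Mut libraries lay between, overlapping both. On the log2 scale the change in Svil-KO against WT was 0.29 ± 0.09 (SE), with a 95% interval of 0.10 to 0.49 (limma, adjusted p = 0.997). Sntb1, beta-1 syntrophin, an adaptor that binds dystrophin and signalling proteins, was counted at 262, 166 and 215 in Svil-KO muscles, 146, 138 and 319 in Svil-Mut, and 113, 85.0 and 133 in WT. The lowest library of each altered genotype exceeded the highest WT library. Its log2 fold change was 0.95 ± 0.34 (SE) in Svil-KO against WT (limma, adjusted p = 0.997, 95% interval 0.20 to 1.70) and 0.77 ± 0.34 (SE) in Svil-Mut against WT (limma, adjusted p = 0.483, 95% interval 0.02 to 1.52). Svil-Mut 4 stood well above the other Svil-Mut libraries, and without it the log2 fold change in Svil-Mut was 0.38.

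Dtna, alpha-dystrobrevin, a dystrophin relative that holds syntrophins at the complex, was counted at 4803, 4871 and 4844 in Svil-KO muscles, 5438, 5258 and 5312 in Svil-Mut, and 4051, 5009.7 and 4892 in WT. The Svil-Mut libraries were above all others, and WT 1 was the lowest. In Svil-Mut against WT the log2 fold change was 0.20 ± 0.09 (SE) (limma, adjusted p = 0.458, 95% interval 0.01 to 0.40), and it was 0.11 without WT 1. Sntb2 averaged 218 ± 19.8 in Svil-KO, 229 ± 108 in Svil-Mut and 207 ± 38.1 in WT, and Dtnb averaged 73.3 ± 23.4 in Svil-KO, 92.1 ± 29.8 in Svil-Mut and 61.5 ± 26.5 in WT (SD, n = 3). Both overlapped between all genotypes, and Sntb2 had its lowest and highest value in 2 Svil-Mut libraries, 124 in Svil-Mut 2 and 341 in Svil-Mut 4.

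Caveolae are small flask-shaped folds of the membrane that flatten under stretch, built in muscle on caveolin-3 with cavins as their coat. Cav3 averaged 2196 ± 308 in Svil-KO, 2051 ± 485 in Svil-Mut and 2007 ± 282 in WT (SD, n = 3). Cavin1 averaged 2755 ± 179 in Svil-KO, 2726 ± 232 in Svil-Mut and 2969 ± 326 in WT, and Cavin4, the muscle cavin, averaged 3484 ± 297 in Svil-KO, 3781 ± 622 in Svil-Mut and 3722 ± 87.4 in WT (SD, n = 3). None of these separated any pair of genotypes. Dysf encodes dysferlin, which brings vesicles to membrane wounds. It was counted at 2128, 2266 and 1861 in Svil-KO muscles, 1930.4, 2270.2 and 1754 in Svil-Mut, and 1703, 1802 and 1823 in WT. Every Svil-KO library exceeded every WT library, by as little as 1861 against 1823, and Svil-Mut overlapped both. On the log2 scale the change in Svil-KO against WT was 0.23 ± 0.11 (SE) (limma, adjusted p = 0.997, 95% interval -0.02 to 0.48).

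The integrin receptor of adult fibres pairs the alpha 7 chain, which gives laminin binding, with the beta 1 chain. Itgb1 was counted at 9984, 9685 and 9176 in Svil-KO muscles, 9073, 8695 and 8567 in Svil-Mut, and 8034, 9072 and 9283 in WT. The Svil-KO libraries exceeded the Svil-Mut libraries and overlapped with WT, where WT 1 was lowest. In Svil-KO against WT the log2 fold change was 0.13 ± 0.08 (SE) (limma, adjusted p = 0.997, 95% interval -0.04 to 0.30), and it was 0.066 without WT 1. Itga7 was counted at 3689, 4085 and 3175 in Svil-KO muscles, 2908, 2182 and 3478 in Svil-Mut, and 2995, 4380.3 and 3188 in WT. It spread over a 2.01-fold range with Svil-Mut 2 lowest and WT 3 highest, and the genotypes overlapped. Itgb1bp2 averaged 5222 ± 477 in Svil-KO, 5198 ± 1156 in Svil-Mut and 5595 ± 61.4 in WT (SD, n = 3), with Svil-Mut 4 lowest.

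The adhesion plaque passes the pull of integrins to actin: talin binds the beta chain and is reinforced by vinculin. Tln1 was counted at 4697, 5152 and 5382 in Svil-KO muscles, 4658, 4250.1 and 4102 in Svil-Mut, and 5517, 4276 and 4799.8 in WT. The Svil-KO libraries exceeded the Svil-Mut libraries by as little as 4697 against 4658, and both overlapped with WT. In Svil-KO against Svil-Mut the log2 fold change was 0.23 ± 0.10 (SE) (limma, adjusted p = 0.490, 95% interval 0.0001 to 0.45). Tln2, held to be the main talin of mature striated muscle fibres, averaged 2488 ± 440.1 in Svil-KO, 2419.8 ± 521 in Svil-Mut and 2114 ± 150.3 in WT (SD, n = 3). Its genotypes overlapped. In these whole muscles Tln2 was counted below Tln1 in every library, at a log2 ratio of -1.32 to -0.44. Vcl was counted at 1566, 2135 and 1579 in Svil-KO muscles, 1651, 1929 and 1328 in Svil-Mut, and 1329, 1380.2 and 1549.7 in WT. The Svil-KO libraries exceeded the WT libraries, narrowly for Svil-KO 1 against WT 4, and Svil-KO 3 was the highest of all. In Svil-KO against WT the log2 fold change was 0.30 ± 0.16 (SE) (limma, adjusted p = 0.997, 95% interval -0.05 to 0.65), and it was 0.15 without Svil-KO 3.

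Lims1 encodes PINCH1, a scaffold that binds integrin-linked kinase and parvin. It was counted at 2042, 2015 and 1715 in Svil-KO muscles, 1566, 1209.5 and 1334 in Svil-Mut, and 1822, 1509 and 1837 in WT. All Svil-KO libraries lay above all Svil-Mut libraries, and the WT libraries lay between, overlapping both. The log2 fold change was 0.49 ± 0.13 (SE) in Svil-KO against Svil-Mut, with a 95% interval of 0.21 to 0.77 (limma, adjusted p = 0.246; edgeR, 0.262; DESeq2, 0.0328). In Svil-Mut against WT it was -0.33 ± 0.13 (SE) (limma, adjusted p = 0.423, 95% interval -0.61 to -0.05). Its relative Lims2, PINCH2, averaged 1361 ± 248 in Svil-KO, 1052 ± 146 in Svil-Mut and 1252 ± 327 in WT (SD, n = 3). Parva, alpha-parvin, the actin-binding arm of the same complex, averaged 581 ± 33.8 in Svil-KO, 529 ± 157 in Svil-Mut and 664 ± 18.6 in WT (SD, n = 3), and each Svil-KO library lay below each WT library.

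Zyxin, from Zyx, is recruited to actin under tension together with Ena/VASP proteins. It was counted at 977, 1108 and 859 in Svil-KO muscles, 1176, 1432 and 1629 in Svil-Mut, and 859, 1088 and 1019.9 in WT. The Svil-Mut libraries exceeded every Svil-KO and WT library, whose values overlapped each other. The log2 fold change was 0.51 ± 0.15 (SE) in Svil-Mut against WT (limma, adjusted p = 0.326, 95% interval 0.18 to 0.84) and -0.52 ± 0.15 (SE) in Svil-KO against Svil-Mut (limma, adjusted p = 0.321, 95% interval -0.85 to -0.19). DESeq2 gave adjusted p-values of 0.0907 and 0.0709 for these comparisons. Its 1 AP-1 match stands in the window printed above.

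Ptk2, focal adhesion kinase, was counted at 1312, 1689.6 and 1625 in Svil-KO muscles, 1162, 1185 and 1370.0 in Svil-Mut, and 1513, 1294 and 1231 in WT. Svil-KO 3 and 4 were the highest libraries, while Svil-KO 1 fell among the other genotypes. In Svil-KO against Svil-Mut the log2 fold change was 0.31 ± 0.13 (SE) (limma, adjusted p = 0.461, 95% interval 0.03 to 0.60). Pxn, the scaffold paxillin, averaged 1834 ± 287 in Svil-KO, 1848 ± 176 in Svil-Mut and 1905 ± 99.4 in WT (SD, n = 3). Fermt2, kindlin-2, which activates integrins with talin, averaged 3694 ± 89.2 in Svil-KO, 4032 ± 298 in Svil-Mut and 3837 ± 110.0 in WT (SD, n = 3). Sorbs3, the vinculin-binding protein vinexin, averaged 2809 ± 216 in Svil-KO, 2807 ± 1277 in Svil-Mut and 2669 ± 132 in WT (SD, n = 3), and the Svil-Mut libraries held both its lowest value, 1910 in Svil-Mut 2, and its highest, 4270 in Svil-Mut 4.

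**Figure D4:**
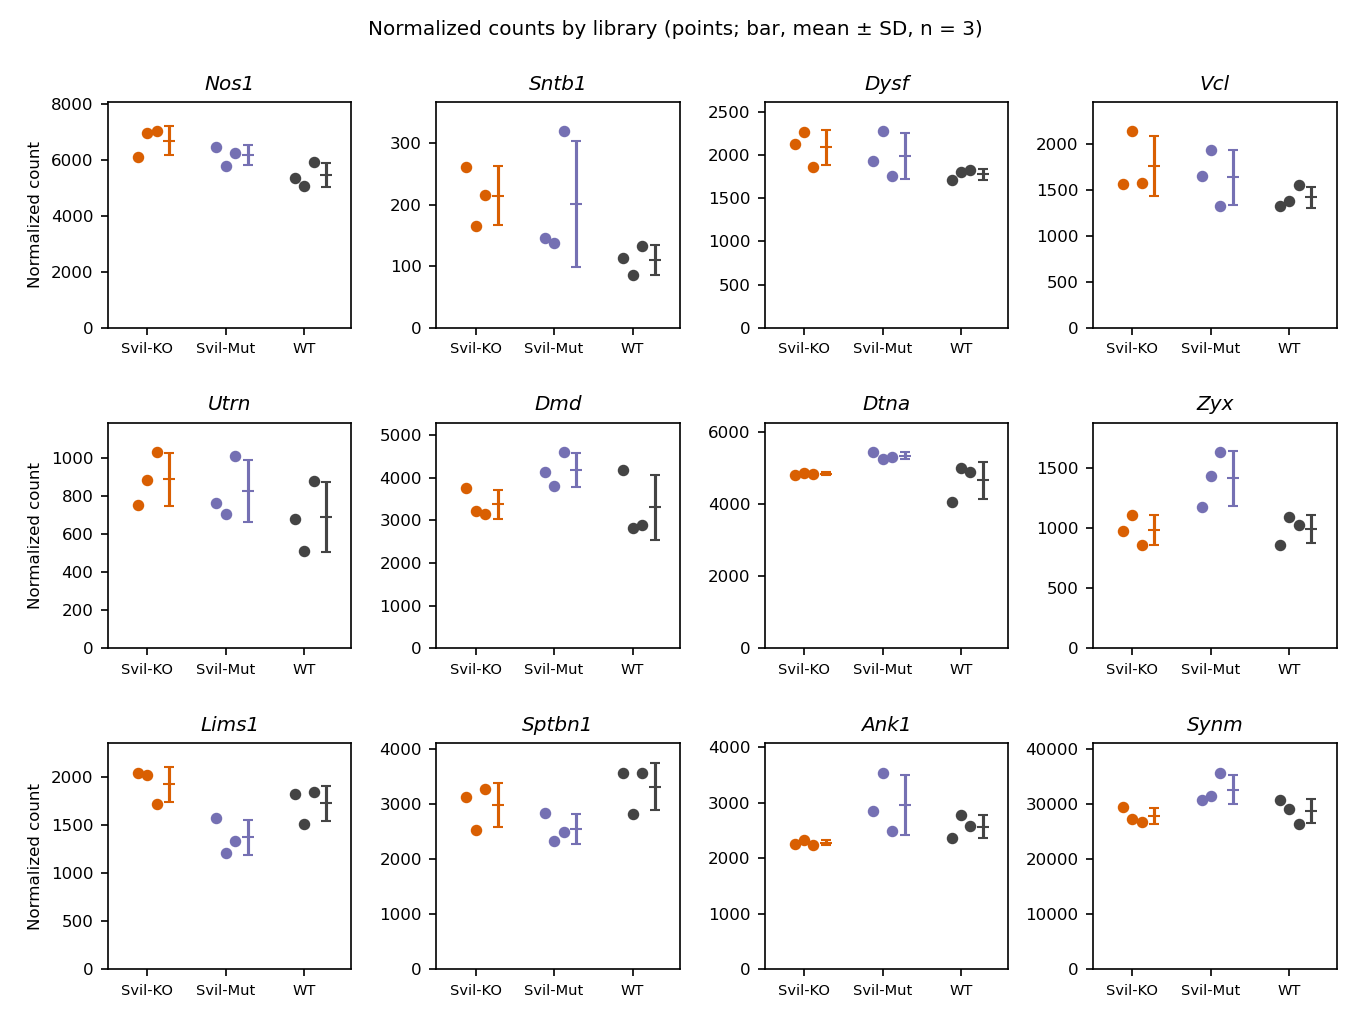
Normalized counts of 12 members in each library (points) of Svil-KO, Svil-Mut and WT with mean ± SD (bars, n = 3), on axes that start at 0. Nos1, Sntb1, Dysf and Vcl show Svil-KO above WT without overlap, and Ank1 shows Svil-KO below both other genotypes. Dtna and Zyx show Svil-Mut above both other genotypes, and Lims1 shows Svil-KO above Svil-Mut.

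Synemin, syncoilin and plectin tie the desmin network to the membrane complexes and Z-discs. Synm was counted at 29491, 27327 and 26769 in Svil-KO muscles, 30679.7, 31449 and 35691 in Svil-Mut, and 30690.4, 29123 and 26354 in WT. The Svil-Mut libraries exceeded the Svil-KO libraries, and WT 1 was as high as Svil-Mut 1. Svil-KO against Svil-Mut gave a log2 fold change of -0.22 ± 0.08 (SE) (limma, adjusted p = 0.412, 95% interval -0.41 to -0.04). Plec was counted at 21276, 20945 and 20953 in Svil-KO muscles, 19268, 18178 and 19903 in Svil-Mut, and 20529.5, 18156 and 21393 in WT. The Svil-KO libraries, close to each other, lay above the Svil-Mut libraries and overlapped with WT. Sync averaged 1569 ± 206 in Svil-KO, 1700.1 ± 101 in Svil-Mut and 1548 ± 114 in WT (SD, n = 3), with all genotypes overlapping.

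Ankyrins and spectrins form the net under the membrane that holds channels and dystrophin in place. Ank1 was counted at 2263, 2329.6 and 2241 in Svil-KO muscles, 2849.8, 3541 and 2489 in Svil-Mut, and 2355, 2771 and 2573 in WT. The Svil-KO libraries were below all others and close together, and Svil-Mut 2 was the highest. Svil-KO against Svil-Mut gave a log2 fold change of -0.36 ± 0.12 (SE) (limma, adjusted p = 0.370, 95% interval -0.63 to -0.09), and it was -0.23 without Svil-Mut 2. Ank1 and Sptb also build the red blood cell membrane, and the red blood cell markers, of which 7 of 8 were in the table and 6 were tested, summed to 2635 to 6208 in Svil-KO, 6559 to 49454 in Svil-Mut and 4431 to 8147 in WT. Their sum was highest in Svil-Mut 4, at 49454, where Ank1 was at 2489, and was 14303 in Svil-Mut 2, where Ank1 was at 3541; their part in the Ank1 difference was not tested. Sptb, the beta spectrin of red cells and muscle, averaged 5955 ± 134 in Svil-KO, 5805 ± 82.7 in Svil-Mut and 5580.1 ± 899 in WT (SD, n = 3). Sptbn1, the general beta spectrin, was counted at 3134, 2532 and 3278 in Svil-KO muscles, 2844, 2318 and 2485 in Svil-Mut, and 3568, 2817 and 3563 in WT. The Svil-Mut values were the lowest on average, with Svil-Mut 1 above WT 3. In Svil-Mut against WT the log2 fold change was -0.38 ± 0.13 (SE) (limma, adjusted p = 0.396, 95% interval -0.67 to -0.09). Ank3, ankyrin-G, averaged 3251 ± 253 in Svil-KO, 3139 ± 191 in Svil-Mut and 3065 ± 392 in WT (SD, n = 3).

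Ratios of partners or paralogues within a library do not depend on its size factor, and 9 were compared. In Svil-KO against WT, only the ratio of Sntb2 to Sntb1 separated the genotypes: on the log2 scale it was -0.28, 0.53 and -0.11 in Svil-KO, against 0.64, 1.55 and 0.55 in WT. The difference of -0.865 gave p = 0.1 in an exact two-sided permutation test, the smallest that 3 against 3 allows, and 0.788 adjusted over 9 ratios. In Svil-Mut against WT, only that of Sptbn1 to Sptb separated them, at -1.05, -1.32 and -1.21 in Svil-Mut, against -0.87, -0.96 and -0.41 in WT (difference -0.446, exact permutation p = 0.1, adjusted 0.9). Between Svil-KO and Svil-Mut none separated. With 1 library left out, 2 are set against 3 and separate more easily, and no background of other gene pairs was counted. The count in Svil-KO against WT was then 2 without WT 1, 3 or 4. In Svil-Mut against WT it was 2 without Svil-Mut 1 or WT 3 and 3 without Svil-Mut 4 or WT 4, and between the altered genotypes 2 without Svil-KO 1 or 3, 1 without Svil-KO 4 and 3 without Svil-Mut 4.

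Beyond the 39 genes, 7 lists of 106 genes of the same assemblies were read, of which 101 were tested: other dystrophin complex genes, dystroglycan glycosylation, basement membrane, other integrins, other plaque genes, other caveolar and repair genes and other cytoskeletal linkers. Limma and edgeR called 0 of 101 in each comparison. The share of all genes called by DESeq2 was not counted. Of the 101, DESeq2 called 0 in Svil-KO against WT, 3 in Svil-Mut against WT and 2 between Svil-KO and Svil-Mut. At an unadjusted limma p under 0.05, 1 of these genes was higher and 3 lower in Svil-KO against WT, 5 higher and 10 lower in Svil-Mut against WT, and 5 higher and 4 lower in Svil-KO against Svil-Mut. These were 3.96%, 14.9% and 8.91% of the 101, beside 4.11%, 10% and 10.2% of all genes in the same order. In Svil-KO against WT, the enzymes that build the laminin-binding sugar of dystroglycan had 1 gene with an unadjusted p under 0.05 upward and 2 downward among 16 tested (18.8%, against 4.11% of all genes). Normalized counts below are means ± SD of 3 libraries. In Svil-Mut against WT, 3 of 15 basement membrane genes had an unadjusted p under 0.05 (20%, against 10% of all genes), all lower, and no test compares this or any other list with the rest of the genes. Col6a1, a collagen VI chain, stood at 804 ± 249 in Svil-Mut against 1504 ± 358 in WT, a log2 fold change of -0.92 (limma, adjusted p = 0.279, and 0.0136 by DESeq2).

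Among the other integrins, Itga5, the fibronectin-binding alpha 5 chain, stood at 457 ± 93.1 in Svil-Mut against 275 ± 11.3 in WT, a log2 fold change of 0.71 (limma, adjusted p = 0.283, and 0.0369 by DESeq2). Of the Ena/VASP proteins, which zyxin recruits, Vasp stood at 549 ± 176 in Svil-Mut against 314 ± 37.8 in WT, a log2 fold change of 0.77 (limma, adjusted p = 0.344). Enah, its relative, went the other way, at 314 ± 58.9 in Svil-Mut against 525 ± 63.2 in WT, a log2 fold change of -0.75 (limma, adjusted p = 0.283, and 0.0424 by DESeq2). Cav2, caveolin-2, stood at 1367 ± 202 in Svil-Mut against 1906 ± 115 in WT, a log2 fold change of -0.49 (limma, adjusted p = 0.307). Ank2, ankyrin-B, which helps to place dystrophin at costameres, stood at 1877 ± 154 in Svil-KO against 1163 ± 225 in Svil-Mut, a log2 fold change of 0.70 (limma, adjusted p = 0.152, and 0.00194 by DESeq2), and 1665 ± 146 in WT.

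A whole muscle holds many cell types, and fewer cells of a type cannot be told apart from less RNA per cell. Of 83 tested marker genes in 11 lists of cell and fibre types, limma called 0 in each comparison. DESeq2 called 0 of them in Svil-KO against WT, 2 in Svil-Mut against WT and 1 between the altered genotypes. Its share of calls over all genes was not counted. At an unadjusted limma p under 0.05, 0 markers were higher and 2 lower in Svil-KO against WT, 8 higher and 9 lower in Svil-Mut against WT, and 10 higher and 11 lower in Svil-KO against Svil-Mut. These were 2.41%, 20.5% and 25.3% of the 83, beside 4.11%, 10% and 10.2% of all genes in the same order. Of the 6 tested red blood cell markers, 5 were among those higher in Svil-Mut than in WT. The sums of this list overlapped between these genotypes and were uneven in Svil-Mut. They were 6559 in Svil-Mut 1, 14303 in Svil-Mut 2 and 49454 in Svil-Mut 4, against 4431 to 8147 in WT. The slow fibre markers, 8 of 8 tested, summed to 76226 to 120036 in Svil-KO, 38987 to 64493 in Svil-Mut and 80290 to 118689 in WT, so the Svil-Mut libraries lay below all others. Mb alone made up 80.3% to 94.9% of this sum in each library. Without it the other 7 slow markers summed to 6392 to 23594 in Svil-KO, 1986 to 7437 in Svil-Mut and 6046 to 10914 in WT, and Svil-Mut 4 lay above Svil-KO 3 and WT 3. Svil-KO 1 stood apart, with the highest value of 7 of the 8 slow markers, Myh7 among them at 2476 against 14.3 to 333 in the other 8 libraries. Mb, myoglobin, stood at 44998 ± 13300 in Svil-Mut against 92426 ± 16944 in WT, a log2 fold change of -1.06 (limma, adjusted p = 0.164, and 0.0208 by DESeq2). Myh2, the myosin of oxidative fast fibres, stood at 13631 ± 9306 in Svil-Mut against 38392 ± 6930 in WT, a log2 fold change of -1.84 (limma, adjusted p = 0.325), and -1.04 without Svil-Mut 2. The fast fibre markers, 10 of 10 tested, summed to 5608690 to 6189620 in Svil-KO, 6443190 to 6933420 in Svil-Mut and 5521920 to 5966630 in WT. Without Myh4, its highest gene, the fast fibre sum still set the Svil-Mut libraries above all others, at 3666220 to 3865030 in Svil-KO, 4019520 to 4466950 in Svil-Mut and 3744120 to 3918500 in WT. The 10 highest genes took 24.4% to 26.7% of counts in Svil-KO, 27.6% to 28.8% in Svil-Mut and 24.6% to 25.8% in WT, and mitochondrially encoded genes took 5.87% to 6.56% in Svil-KO, 3.93% to 5.03% in Svil-Mut and 5.32% to 6.51% in WT. The part of these differences in the values of Zyx, Dmd, Dtna, Sntb1, Lims1 and Sptbn1 in Svil-Mut muscle was not tested. Between Svil-KO and Svil-Mut, the red blood cell, slow fibre and fast fibre sums did not overlap, but without the highest gene of each list (Hbb-bs, Mb and Myh4) only the fast fibre sums were still apart, and their part in the values of Lims1, Zyx, Ank1, Synm, Ptk2 and Tln1 was not tested. In Svil-KO against WT, where Nos1 and Sntb1 had the smallest p, the sums of all 11 lists overlapped, with and without the highest gene of each list. Without Svil-KO 1, the library with the high slow markers, the log2 fold change was 0.36 for Nos1 and 0.80 for Sntb1. The part of cell and fibre types in the values of Nos1 and Sntb1 was not tested. Among single markers, Calcr of satellite cells was at 0, 0 and 2.39 in Svil-KO, at 0 in the 3 Svil-Mut libraries and at 49.2, 15.2 and 12.2 in WT. Cidec and Lep of adipocytes were at 0 in Svil-Mut 1 and 2. The sums of both lists overlapped between all genotypes, with and without their highest gene. Satellite cell markers summed to 1545 to 1860 in Svil-KO, 1730 to 1940 in Svil-Mut and 1602 to 1886 in WT. Adipocyte markers summed to 3113 to 4003 in Svil-KO, 2434 to 4121 in Svil-Mut and 3416 to 3890 in WT.

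**Figure D5:**
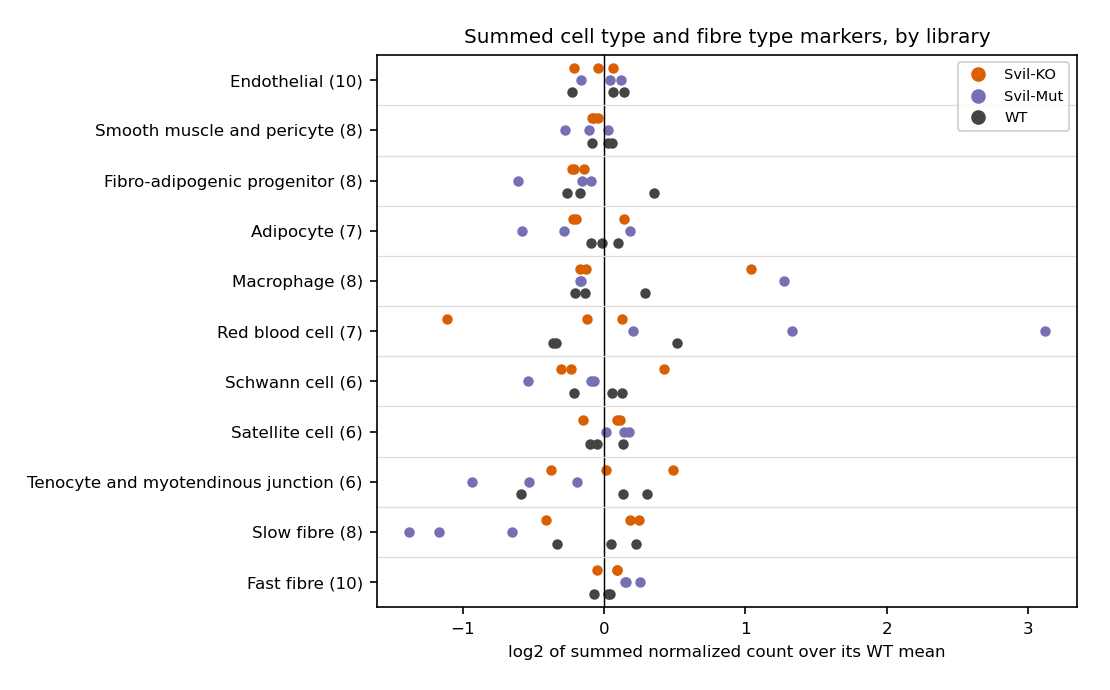
Summed normalized count of each marker list, as log2 over its WT mean, with 1 point per library of Svil-KO, Svil-Mut and WT; numbers in parentheses are genes in the list found in the table. The slow fibre sums, mostly Mb, lie lowest in the Svil-Mut libraries, and the red blood cell sum is highest in Svil-Mut 4.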

How the data were processed

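RNA was measured in 9 libraries, 3 per genotype and 1 per mouse, all with batch label 1. Full-length cDNA was made with oligo(dT) priming (SMARTer v4) and tagmented with Nextera XT, per the labels' protocols, so strand is not marked. Per the submitters' processing notes, HISAT2, featureCounts and DESeq2 were run against mm10, and no version or annotation is given in the sources used here. Each deposited value is a signal, a read count that the authors divided by the size factor of the library. Dividing by the smallest spacing gave whole reads, to within 0.001, for 100% of the nonzero values of each library, and all sample columns were used. Size factors rest on a majority of genes being at a like level in every library, and they leave gene length uncorrected. No molecular identifiers are described, so intervals reflect the spread between mice and not counts of molecules.

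Genotypes were compared with limma, in 1 fit to all 9 libraries with a variance trend, on the log2 scale after adding 1 to each normalized count, for 15279 genes with a normalized count of 10 in at least 3 libraries. This scale understates changes of low genes. Genes were called at a Benjamini-Hochberg adjusted p under 0.05 over all genes tested. Ratios within a library were compared with exact permutation tests. Exonic lengths and overlaps came from the GENCODE vM21 annotation of GRCm38, which need not be the one used for counting. The limma steps were tested on simulated data. The members and lists were chosen with earlier results of these data known, so no test was run over the members as a set. Values in every library are given for the 6 members with the smallest p in each comparison and for Dmd, Utrn, Dag1, Itgb1, Itga7, Vcl, Tln1 and Plec. At most 3 genes are named per other list and comparison. Exceptions are single markers named for being at 0 and fibro-adipogenic markers named by their lowest library, which were picked after their values were seen. Alternatives were other pseudocounts (0.5 and 10; 1 for ratios), filters (none, or a mean of 50), normalizations (equal totals, quantile), variance models (no trend, robust, library weights), fits of the 2 genotypes compared, a replicate block, the count tests edgeR and DESeq2 run on whole reads, a threshold of 0.10 and leaving out each library. The length of the longest transcript, the counts of members without overlap under other settings, and marker sums without the highest gene of a list were added after seeing the data. Software was Python 3.11.15 with matplotlib 3.10.9, and R 4.3.3 with DESeq2 1.42.0, edgeR 4.0.16 and limma 3.58.1.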

Additional observations from a re-analysis of the deposited data

Results flagged for a closer look

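Svil, the altered gene, differed between the effects of the altered genotypes: the effect in Svil-KO minus the effect in Svil-Mut, both against WT, was 0.6653 on the log2 scale (limma, adjusted p = 0.0261), with 6934 ± 407 normalized counts in Svil-KO, 4379 ± 381 in Svil-Mut and 8822 ± 497 in WT (SD, n = 3). No member of the costamere set met this criterion by limma. Groups of 3 libraries are too small for a check of single outlying samples.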

How the results depend on the processing

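Of 414 repeats of the 18 named member fold changes (23 alternatives each), 413 kept their direction and their side of the threshold and none reversed. The exception was Lims1 in Svil-KO against Svil-Mut, called by DESeq2 (0.49, adjusted p = 0.0328), which made the count of members called 1. All 18 were uncalled in the main fit and were picked for a small p, so this is a weak check. Other filters, a fit without the trend or of only the 2 genotypes compared, and leaving out a library of the third genotype do not alter a fold change. Every other count of members called was 0. Of 330 repeats for 15 fold changes of genes named from the other lists, 322 stayed uncalled and 0 reversed. The other 8 were newly called, 7 by DESeq2 and 1 (Mb) without Svil-Mut 1. The median fold change of members in Svil-Mut against WT was -0.000399 with equal totals, and the cause was not tested. Over all settings the median of all genes lay between -0.037 and 0.025. Svil lost its call in Svil-Mut against WT without the variance trend (-1.01, limma adjusted p = 0.0551), and in Svil-KO against Svil-Mut without the trend (0.67, 0.321), with only the 2 genotypes compared (0.67, 0.107) and with the replicate block (0.58, 0.148); the causes were not tested.

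Leaving out 1 library at a time gave member medians of 0.028 to 0.096 in Svil-KO against WT, -0.0042 to 0.072 in Svil-Mut against WT and 0.040 to 0.085 in Svil-KO against Svil-Mut. It gave 0.59 to 0.71 for Svil in the last comparison, and 1 to 2, 1 to 3 and 0 to 3 partner ratios without overlap in the 3 comparisons. Ratios separate more easily with 2 libraries against 3. Same-numbered libraries had correlations of deviations between -0.0556 and 0.0444 (7 pairs), and libraries of different number between -0.0387 and 0.0613 (20 pairs). No pairing by number showed over all genes tested, which does not exclude a pairing that touches few genes. With the replicate block limma called 0 members in each comparison, and in Svil-Mut against WT it gave 0.46 for Vasp and -1.20 for Myh2. Depth limits Dtnb and Sntb1 most, at the lowest counts, and Ilk could not be measured.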
